A study of Arabidopsis thaliana with 6 samples.

Results

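The genes described here are 35 nuclear genes of Arabidopsis thaliana that encode the core of photosynthetic electron transport: 12 subunits of photosystem I, 11 of photosystem II, 7 electron carriers, 3 subunits of the chloroplast ATP synthase and 2 factors of cyclic electron flow. They were taken by gene identifier from a table of 24267 genes, by a rule that uses no measured value and leaves out genes of the light-harvesting antenna, and all 35 passed the filter on low counts. RNA was sequenced from wild-type (WT, Col) seedlings in 3 groups of 2 libraries. Seedlings grown for 4 days on Murashige and Skoog plates with 3% sucrose, under 16 h of light at 23 °C, were moved to plates with 1 nM of the auxin IAA (indole-3-acetic acid), with 10 nM MT (melatonin) or with the solvent alone, and were collected at 72 h. The solvent was ethanol, which the protocol gives as 0.1% for the control. The sample labels name seedlings as the tissue, while the design text of the series names rosette leaves. Neither says how many plants went into a library or whether replicates came from separate plates, so the p-values measure the spread between these libraries, which may be technical.

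Light energy drives electrons from water through photosystem II, the cytochrome b6f complex and plastocyanin to photosystem I, and on through ferredoxin and ferredoxin-NADP+ reductase to NADPH. The protons released in the lumen drive the ATP synthase, and cyclic flow around photosystem I adds ATP without NADPH. The reaction centres themselves are made from chloroplast genes, whereas the subunits described here are made in the cytosol and imported, and in Arabidopsis several of them are encoded by a pair of gene copies.

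Library totals ran from 35953236 to 46076624 counts, and single counts of these genes from 68 to 142426. Together they took 2.65 and 2.68% of all counts in control, 2.60 and 2.35% under IAA and 3.01 and 2.85% under MT. Levels are given as CPM, which are counts relative to a library total scaled by TMM, in the order replicate 1 and replicate 2 of a group. A gene is said to have risen or fallen where edgeR's quasi-likelihood test gave an adjusted p under 0.05 over all 21355 genes tested. In RNA from whole tissue fewer cells of a type and less RNA per cell cannot be told apart. Per kilobase of its longest annotated transcript PSBR had the highest level of the 35 genes, 4940 ± 148 CPM per kb (mean ± SD, n = 2 control libraries). PSBO1 followed with 1556 ± 137, PSBP1 with 1165 ± 84.4, PSBX with 1072 ± 27.7 and PSAL with 1057 ± 14.0 CPM per kb. The control libraries of PSBX and PSAL overlapped, while both of PSBP1 were above them. The place of PETE2 depends on the library, with 1192 CPM per kb in control replicate 1 and 55.9 in control replicate 2. PGR5 was lowest, at 74.8 ± 2.12 CPM per kb.

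With IAA 0 of the 35 genes rose and 0 fell in edgeR's test, where 0.272% of all genes tested rose and 0.0609% fell. In 20 of them both IAA libraries were below both control libraries, as in 24.8% of all genes, and in 0 were both above, as in 23.6%. With MT 4 of the 35 genes rose and 0 fell, beside 3.99 and 3.65% of all genes, and 3 of the 4 belong to photosystem I. Both MT libraries were above both control libraries in 17 genes and below them in 3, where all genes gave 27.8 and 27.7%. The median log2 fold change of the 35 genes was -0.21 with IAA and 0.10 with MT, against 0.00 for all genes tested in both comparisons. Both comparisons use the same control libraries, so they are not independent. Counts by other rules are read against their own shares of all genes. At an unadjusted p under 0.05, 6.94% of all genes tested were higher and 7.32% lower with IAA, 12.5 and 12.7% with MT, and 9.08 and 8.28% between MT and IAA. DESeq2 called 1.97% higher and 1.69% lower with IAA, 7.28 and 6.89% with MT, and 3.98 and 3.14% between MT and IAA, of the genes to which it gave an adjusted p. Limma voom called 0.197% higher and 0.0609% lower with IAA, 3.52 and 3.42% with MT, and 0.14 and 0.108% between MT and IAA.

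**Figure D1:**
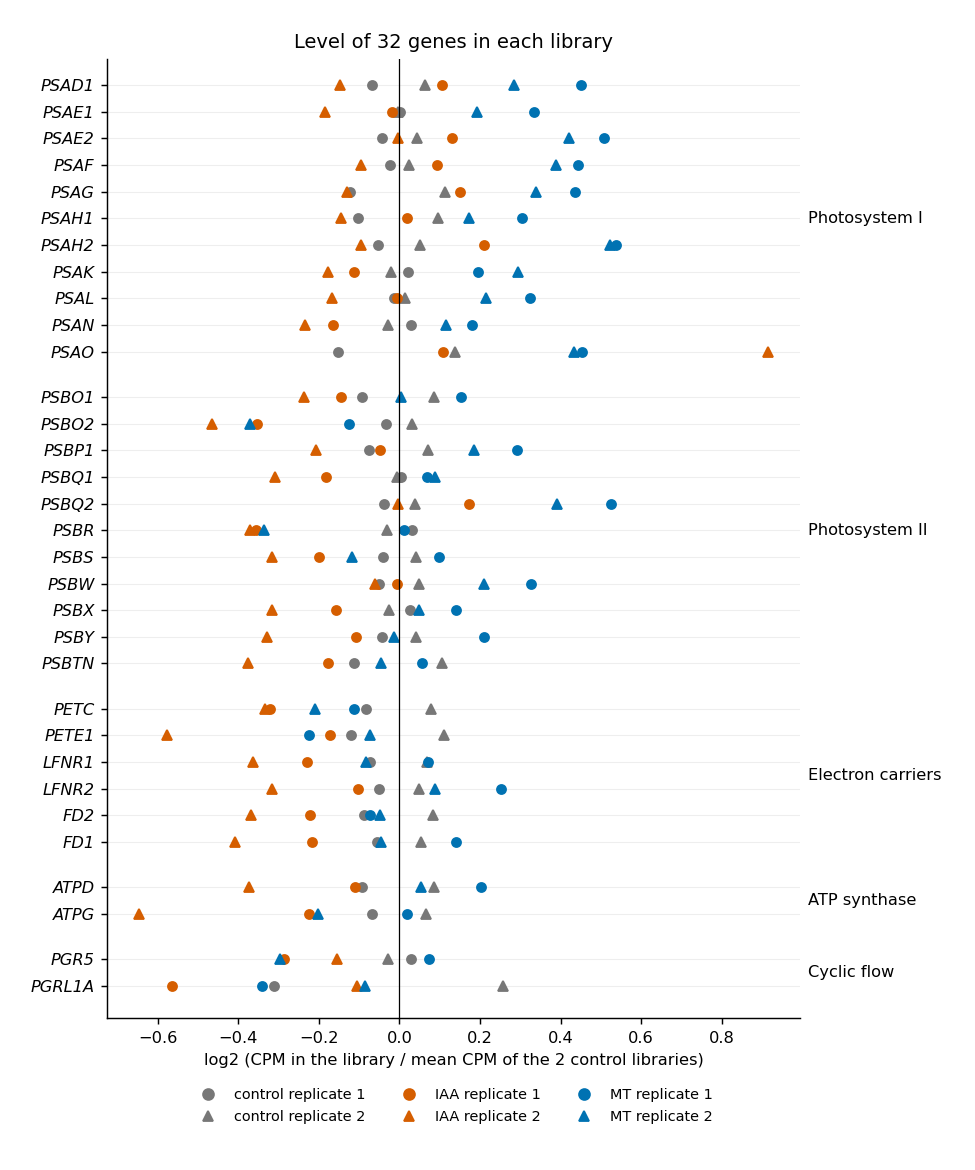
Level of 32 genes in each of the 6 libraries, as log2 of its CPM over the mean CPM of the 2 control libraries (horizontal axis), by gene and role (vertical axis). Colours are the groups and symbols the replicates. In photosystem I all MT points lie right of the control points, and in photosystem II, the carriers and the ATP synthase most IAA points lie left of them. PSAD2, PETE2 and ATPC1 are left out because their replicates differ over 4-fold.

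Before the roles are taken in turn, 3 genes stand apart because their replicate libraries differed over 4-fold. PSAD2 (AT1G03130), a photosystem I subunit at the ferredoxin docking site, had 7523 and 7409 counts with solvent alone, 9644 and 68 counts under IAA and 1726 and 76 counts under MT. In CPM these were 210.3 and 198, 217 and 1.43, and 48.8 and 1.93. Its level was thus near the control in IAA replicate 1 and 152-fold lower than that in IAA replicate 2. ATPC1 (AT4G04640) had 81.8 and 828 CPM with solvent alone, 709 and 13.9 CPM under IAA and 49.8 and 802 CPM under MT. Control replicate 1, IAA replicate 2 and MT replicate 1 were low in this gene of the gamma subunit of the ATP synthase, and the highest library was 59.7 times the lowest. PETE2 (AT1G20340) had 1606 and 75.3 CPM with solvent alone, 1428 and 1281 CPM under IAA and 1737 and 1596 CPM under MT. For this gene, one of a pair that encode plastocyanin, control replicate 2 alone was low, and the highest library was 23.1 times the lowest.

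Gaps of this size were rare in the table. Among genes with a group mean of at least 100 CPM, 0.279% differed over 4-fold between the control replicates, 0.336% between the IAA and 0.284% between the MT replicates. These included 2, 2 and 1 of the 35 genes in the same order. With no minimum level, the 32 genes other than PSAD2, ATPC1 and PETE2 differed at most 1.75-fold, in PSAO. In the TAIR10.1 annotation PSAD2 overlaps AT1G03140, a neighbour on the same strand, by 2 bases. AT1G03140 had 1898 and 2091 counts with solvent alone, 2407 and 10313 counts under IAA and 9706 and 12233 counts under MT. It was high in the 3 libraries in which PSAD2 was low. The sum of both was 9421 and 9500 counts in control, 12051 and 10381 counts under IAA and 11432 and 12309 counts under MT. In CPM the highest sum was 1.48 times the lowest, against 152 times for PSAD2 alone. No reads were examined, and whether reads passed from one gene model to the other was not tested. ATPC1 and PETE2 overlap no other gene model in that annotation.

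The fitted log2 fold changes of these 3 genes carried errors above 1 and none was called. PSAD2 had -0.90 ± 1.74 (SE) with IAA and -3.02 ± 1.88 with MT, the lowest values of the 35 genes, and -2.11 ± 1.82 between MT and IAA. Counted together with AT1G03140 as 1 feature, an alternative added after the data were seen, it had -0.08 with IAA (adjusted p = 0.800) and 0.30 with MT (adjusted p = 0.175). Over all alternatives the adjusted p of PSAD2 ran from 0.435 to 0.988 with IAA and from 0.131 to 0.622 with MT. With IAA PSAD2 had -7.15 without IAA replicate 1 and 0.10 without IAA replicate 2. PETE2 had the highest values, 0.69 ± 1.04 with IAA and 0.99 ± 1.05 with MT. Without control replicate 2 they were -0.24 and 0.06, and without control replicate 1, where the low library is the only control, 4.17 and 4.47 (adjusted p = 0.00371 and 0.00446, the lowest of ranges up to 0.925 and 0.842). ATPC1 had -0.33 ± 1.78 with IAA and -0.10 ± 1.78 with MT. With a library left out ATPC1 ran from -5.02, without IAA replicate 1, to 2.15, without control replicate 2, with IAA, and from -3.18, without MT replicate 2, to 2.38, without control replicate 2, with MT. With these 3 genes left out, the median of the other 32 was -0.21 with IAA, 0.12 with MT and 0.33 between MT and IAA.

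**Figure D2:**
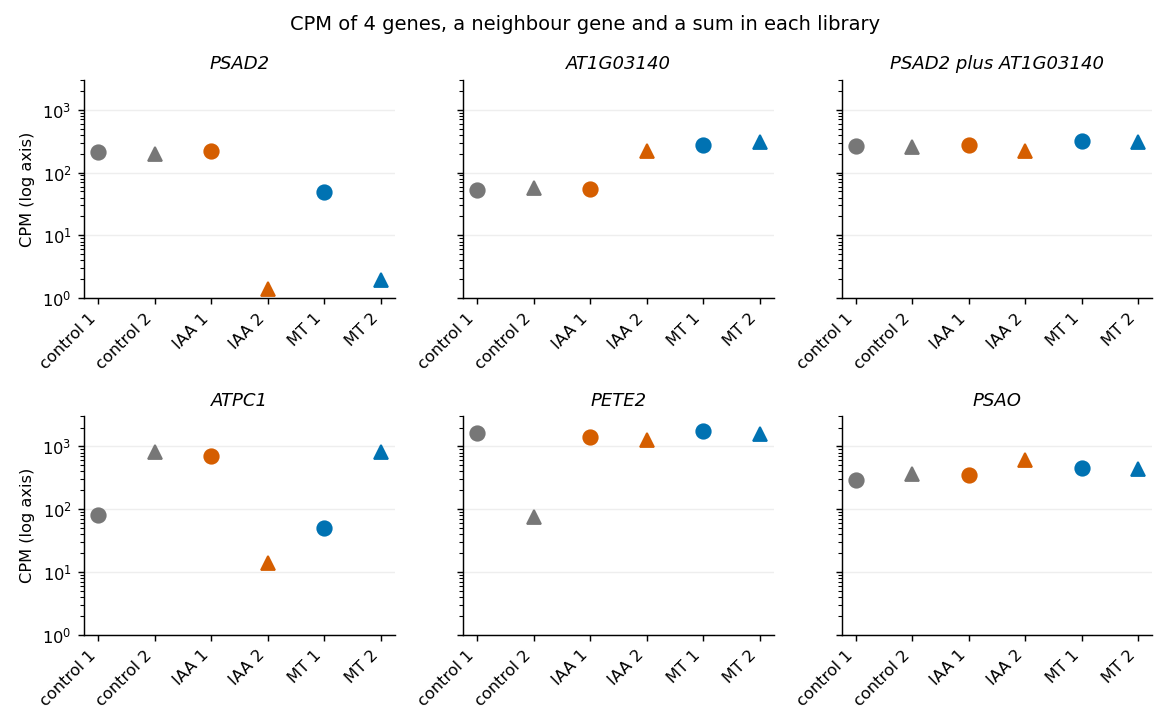
CPM in each of the 6 libraries (log axis) for PSAD2, its neighbour AT1G03140, the sum of both, ATPC1, PETE2 and PSAO. PSAD2 is low where AT1G03140 is high and their sum stays between 218 and 323 CPM. ATPC1 is low in 1 library of each group, PETE2 in 1 control library, and PSAO is highest in IAA replicate 2.

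Photosystem I passes electrons from plastocyanin to ferredoxin, and 3 of its 12 nuclear genes rose with MT, while 0 fell and 9 did not pass. PSAE2 (AT2G20260) had 187 and 199 CPM with solvent alone, 211 and 192 CPM under IAA and 274 and 258 CPM under MT. This subunit helps to bind ferredoxin on the stromal side. Both MT libraries were above the other 4, and the level went from 193 ± 8.19 to 266 ± 11.2 CPM (mean ± SD, n = 2 each), a log2 fold change of 0.46 ± 0.09 (SE) with an adjusted p of 0.0296. PSAH2 (AT1G52230) stood at 232 and 249.6 CPM in control, 278 and 226 CPM in IAA and 349 and 346 CPM in MT libraries. It lies in the region where antenna of photosystem II docks during state transitions. The MT libraries were again the highest, with a log2 fold change of 0.53 ± 0.12 (adjusted p = 0.0426). PSAF (AT1G31330) had 816 and 844 CPM with solvent alone, 886 and 776 CPM under IAA and 1128 and 1086 CPM under MT. PsaF binds plastocyanin on the lumen side, and its IAA and control libraries overlapped while both MT libraries were higher (0.42 ± 0.09, adjusted p = 0.0449).

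These 3 calls were lost with any control or MT library left out, apart from PSAE2, which stayed called without MT replicate 2. Such a fit has 1 library in a group, and calls were then fewer over all genes too. The losses therefore cannot be tied to any single library. With control replicate 1 left out, PSAE2 had an adjusted p of 0.141, PSAH2 of 0.178 and PSAF of 0.188. With control replicate 2 left out these were 0.0978, 0.119 and 0.143, and with MT replicate 1 left out 0.0976, 0.122 and 0.128. PSAH2 had 0.0912 and PSAF 0.0700 with MT replicate 2 left out. The log2 fold changes of the 3 genes stayed between 0.39 and 0.58 over 17 other settings. PSAF also lost its call without either IAA library (adjusted p = 0.0604 and 0.0584), whose replicates enter the shared estimate of spread. PSAE2 and PSAH2 each overlap a gene model on the other strand, and whether counting used strand is unknown here, so their counts are uncertain.

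The other 9 genes of photosystem I did not pass with MT. PSAD1 (AT4G02770) stood at 639 and 699 CPM in control, 719.6 and 604 CPM in IAA and 914 and 814 CPM in MT libraries. PSAE1 (AT4G28750) had 547 and 545 CPM with solvent alone, 539.7 and 481 CPM under IAA and 688 and 624 CPM under MT. PSAH1 (AT3G16140) stood at 323 and 370.0 CPM in control, 351 and 313 CPM in IAA and 428 and 390.3 CPM in MT libraries. In these first copies of the PsaD, PsaE and PsaH pairs both MT libraries were above both control libraries, with log2 fold changes of 0.37 ± 0.12, 0.26 ± 0.10 and 0.24 ± 0.11. PSAG (AT1G55670) had 683 and 805 CPM with solvent alone, 826 and 679 CPM under IAA and 1007 and 941 CPM under MT. PSAK (AT1G30380) stood at 629 and 611 CPM in control, 573 and 548 CPM in IAA and 709 and 759.6 CPM in MT libraries. PsaG and PsaK sit at the rim where the antenna binds, and both had MT libraries above the control (0.39 ± 0.13 and 0.25 ± 0.08, adjusted p = 0.118 and 0.130). PSAL (AT4G12800) had 1125 and 1146 CPM with solvent alone, 1131 and 1011 CPM under IAA and 1421 and 1317 CPM under MT. PSAN (AT5G64040) stood at 607 and 583 CPM in control, 531 and 506 CPM in IAA and 674 and 645 CPM in MT libraries. PsaL anchors the docking region and PsaN lies in the lumen, and their values with MT were 0.27 ± 0.09 and 0.15 ± 0.08. PSAO (AT1G08380) had 294 and 360.1 CPM with solvent alone, 353 and 617 CPM under IAA and 448 and 442 CPM under MT. PsaO is a small subunit beside that region. PSAO had the widest replicate gap of the 32 genes, in IAA, and its value of 0.57 ± 0.24 with IAA was 0.12 without IAA replicate 2 and 0.92 without IAA replicate 1. Its value with MT was 0.44 ± 0.24 (adjusted p = 0.310).

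With MT both libraries were thus above both control libraries in 11 of 12 genes of photosystem I and below them in PSAD2. The median log2 fold change of the 12 was 0.32. With IAA it was -0.04, with 0 genes called, and both IAA libraries were lower in 3 genes, PSAE1, PSAK and PSAN. PSAN had -0.20 ± 0.08 (adjusted p = 0.346). Summed over 11 genes without PSAD2, photosystem I came to 1.29 and 1.22 times the control mean in the MT libraries and to 1.02 and 0.953 times in the IAA libraries.

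**Figure D3:**
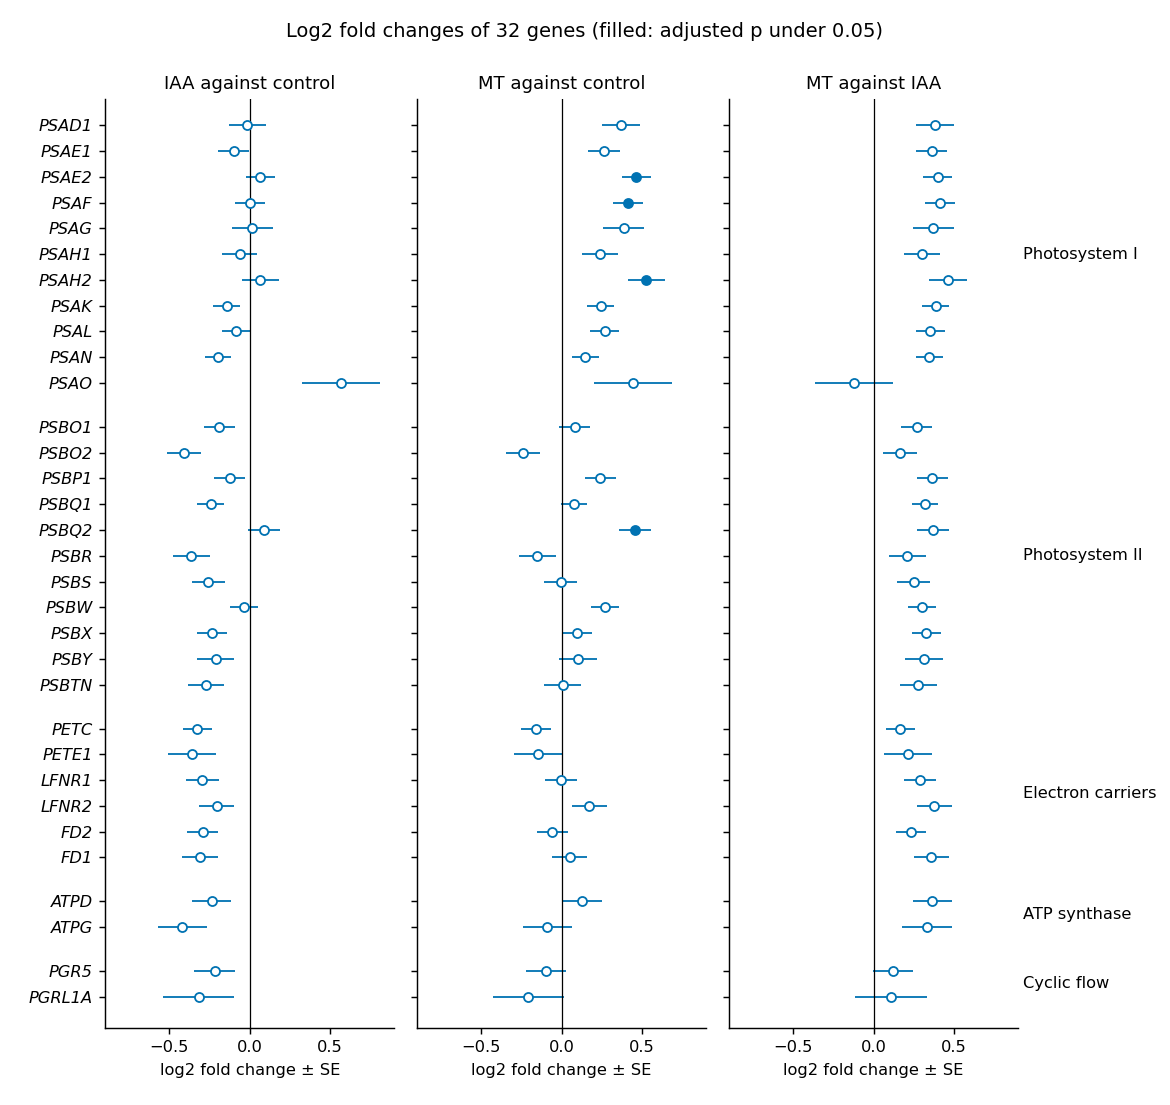
Log2 fold change with its SE (horizontal axis) of 32 genes by role (vertical axis) in the 3 comparisons, with filled points for adjusted p under 0.05. PSAE2, PSAF, PSAH2 and PSBQ2 are filled in MT against control, and no point is filled in the other panels. Between MT and IAA all genes but PSAO lie right of 0.

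Photosystem II splits water at a manganese cluster that the PsbO, PsbP and PsbQ proteins shield on the lumen side. With MT 1 of its 11 genes rose, 0 fell and 10 did not pass. PSBQ2 (AT4G05180) had 472 and 498 CPM with solvent alone, 547 and 484 CPM under IAA and 697 and 636 CPM under MT. Its MT libraries were the highest 2 of the 6, and the level went from 485 ± 18.2 to 667 ± 43.0 CPM (mean ± SD, n = 2 each). The log2 fold change was 0.46 ± 0.10 (adjusted p = 0.0413), a call lost without control replicate 1 (0.178), control replicate 2 (0.123), MT replicate 1 (0.133) or either IAA replicate (0.0594 and 0.0584). PSBQ1 (AT4G21280) stood at 946 and 939 CPM in control, 831 and 761 CPM in IAA and 989 and 1002 CPM in MT libraries. This other copy had 0.08 ± 0.08 with MT and -0.24 ± 0.08 with IAA, and both of its IAA libraries were below the other 4.

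PSBO1 (AT5G66570) had 2200.3 and 2492 CPM with solvent alone, 2122 and 1991 CPM under IAA and 2609 and 2354 CPM under MT. PSBO2 (AT3G50820) stood at 955 and 999 CPM in control, 764 and 708 CPM in IAA and 895 and 756 CPM in MT libraries. The 2 copies of PsbO, which stabilises the manganese cluster, had 0.08 ± 0.10 (PSBO1) and -0.24 ± 0.11 (PSBO2) with MT, neither called, and PSBO1 overlapped the control while both MT libraries of PSBO2 were below it. With IAA PSBO2 had both libraries below the control and the lowest value of photosystem II (-0.41 ± 0.11, adjusted p = 0.202), and DESeq2 called it lower (adjusted p = 0.0104, the lowest of a range up to 0.558 over the alternatives). PSBP1 (AT1G06680) had 1493 and 1654 CPM with solvent alone, 1522 and 1364 CPM under IAA and 1928 and 1789 CPM under MT. Its IAA libraries overlapped the control, while both MT libraries were higher (0.24 ± 0.10, adjusted p = 0.184). PSBR (AT1G79040) stood at 3954 and 3791 CPM in control, 3028 and 2994 CPM in IAA and 3902 and 3070 CPM in MT libraries. PsbR, which helps PsbP to bind, was low in both IAA libraries and in MT replicate 2, with -0.36 ± 0.12 against control for IAA and -0.15 ± 0.12 for MT.

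PSBS (AT1G44575) had 895 and 947 CPM with solvent alone, 802 and 739.9 CPM under IAA and 987 and 849.7 CPM under MT. PsbS triggers the release of excess light energy as heat. Its IAA libraries were the lowest (-0.26 ± 0.10) and its MT libraries lay on both sides of the control (-0.0049 ± 0.10). PSBW (AT2G30570) stood at 759 and 814 CPM in control, 783 and 754 CPM in IAA and 986 and 910.5 CPM in MT libraries. PSBX (AT2G06520) had 786 and 757 CPM with solvent alone, 692 and 619.7 CPM under IAA and 851 and 798 CPM under MT. PSBY (AT1G67740) stood at 572 and 607 CPM in control, 547 and 469.9 CPM in IAA and 682 and 584 CPM in MT libraries. These small membrane subunits had 0.27 ± 0.09, 0.10 ± 0.09 and 0.10 ± 0.12 with MT, and -0.03 ± 0.09, -0.23 ± 0.09 and -0.21 ± 0.12 with IAA. PSBTN (AT3G21055) had 560.4 and 652 CPM with solvent alone, 536 and 467 CPM under IAA and 630.2 and 588 CPM under MT. For this small subunit of the lumen side the IAA libraries were lowest and control and MT overlapped.

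Over the 11 genes of photosystem II the median was 0.08 with MT and -0.23 with IAA. Both IAA libraries were below both control libraries in 8 genes, all but PSBP1, PSBQ2 and PSBW. With MT both libraries were higher in 5 genes and lower in PSBO2. Their sum was 0.878 and 0.818 times the control mean in the IAA libraries and 1.09 and 0.961 times in the MT libraries. PSBR weighs most in it, with 3873 of 13872 CPM in the control means, and had 3902 and 3070 CPM under MT.

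The carriers link the photosystems and pass electrons to NADP+. PETC (AT4G03280) had 903 and 1009 CPM with solvent alone, 766 and 758 CPM under IAA and 885 and 827 CPM under MT. PETC encodes the Rieske iron-sulfur protein of the cytochrome b6f complex, and both treatments had both libraries below the control, with -0.33 ± 0.09 for IAA (adjusted p = 0.218) and -0.16 ± 0.09 for MT (adjusted p = 0.325). DESeq2 called it lower with IAA (adjusted p = 0.0185, in a range up to 0.613 over the alternatives). PETE1 (AT1G76100) stood at 101 and 119 CPM in control, 97.5 and 73.6 CPM in IAA and 94.0 and 104 CPM in MT libraries. This plastocyanin copy had -0.36 ± 0.15 with IAA and -0.15 ± 0.15 with MT. FD1 (AT1G10960) had 268 and 289 CPM with solvent alone, 239.8 and 210.0 CPM under IAA and 307 and 269.9 CPM under MT. FD2 (AT1G60950) stood at 925 and 1041 CPM in control, 842 and 762 CPM in IAA and 935 and 951 CPM in MT libraries. Both leaf ferredoxins had their IAA libraries below the other 4, at -0.31 ± 0.11 for FD1 and -0.29 ± 0.10 for FD2, while their values with MT were 0.05 ± 0.11 and -0.06 ± 0.10.

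LFNR1 (AT5G66190) had 808 and 890.2 CPM with solvent alone, 725 and 659.7 CPM under IAA and 892 and 802 CPM under MT. LFNR2 (AT1G20020) stood at 742 and 796 CPM in control, 717 and 618 CPM in IAA and 916 and 817 CPM in MT libraries. These leaf ferredoxin-NADP+ reductases had -0.29 ± 0.10 and -0.20 ± 0.11 with IAA, with both IAA libraries lowest in each. With MT LFNR2 had both libraries above the control (0.17 ± 0.11) and LFNR1 overlapped it (-0.0033 ± 0.10). Of the 7 carriers 0 were called in any comparison by edgeR's test or limma voom. The unadjusted p was under 0.05 for 5, 0 and 4 of them with IAA, with MT and between MT and IAA, and DESeq2 called 1 lower, 0 and 2 higher in the same order. Both IAA libraries were below the control in 6, all but PETE2. Their median was -0.29 with IAA and 0.00 with MT. The sum of 6 carriers without PETE2 was 0.858 and 0.781 times the control mean with IAA and 1.02 and 0.956 times with MT.

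ATPD (AT4G09650) had 388 and 439 CPM with solvent alone, 383 and 319 CPM under IAA and 476 and 429.6 CPM under MT. ATPG (AT4G32260) stood at 753 and 826 CPM in control, 676 and 504 CPM in IAA and 799 and 686 CPM in MT libraries. ATPD encodes the delta subunit of the ATP synthase and ATPG a subunit of its peripheral stalk. Both had their IAA libraries below the control, and ATPG had the lowest value of the 32 genes with IAA (-0.42 ± 0.15, adjusted p = 0.300), with a gap of 1.34-fold between the IAA replicates. PGR5 (AT2G05620) had 86.3 and 82.9 CPM with solvent alone, 69.3 and 76.0 CPM under IAA and 89.1 and 68.9 CPM under MT. PGRL1A (AT4G22890) stood at 182 and 269 CPM in control, 152 and 209 CPM in IAA and 178 and 212 CPM in MT libraries. PGR5 and PGRL1A act together in cyclic flow from ferredoxin back to plastoquinone. Their values were -0.22 ± 0.13 and -0.32 ± 0.22 with IAA and -0.10 ± 0.13 and -0.21 ± 0.22 with MT, and the groups of PGRL1A overlapped in both comparisons.

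Of the 35 genes, of which edgeR's test called 0 with IAA, 13 had an unadjusted p below 0.05 there, all of them lower, as did 7.32% of all genes. DESeq2 called PSBO2 and PETC lower, 2 in all, beside 1.69% of all genes, and limma voom called 0. The 20 genes with both IAA libraries below the control were 3 of photosystem I, 8 of photosystem II, 6 carriers, 2 of the ATP synthase and PGR5. With MT against control, p before adjustment was below 0.05 for 11 of the 35 genes, all of them higher, beside 12.5% of all genes. Of these 11, 8 belong to photosystem I and 3 to photosystem II. DESeq2 called 9 higher with MT, beside 7.28% of all genes, and limma voom called 4 higher, beside 3.52%. In the direct comparison of MT with IAA, which tests how the treatments differ at these doses, 0 genes were called, beside 0.089% risen and 0.0843% fallen of all genes. There 24 of the 35 reached an unadjusted p under 0.05, all higher with MT, as did 9.08% of all genes. DESeq2 called 16, all higher with MT, beside 3.98% of all genes, and limma voom called 0. Both MT libraries were above both IAA libraries in 28 genes and below them in 0, against 24.3 and 26.1% of all genes. The median was 0.32, against 0.00 for all genes, with 0.37 in photosystem I, 0.30 in photosystem II, 0.29 in the carriers and 0.33 in the ATP synthase. In the 2 genes of cyclic flow it was 0.11, and both overlapped between MT and IAA. PSAH2 had the highest value (0.46 ± 0.12, adjusted p = 0.138) and PSAK the lowest p (adjusted p = 0.116, 0.39 ± 0.08).

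Of the 4 risen genes 3 belong to the 8 pairs of gene copies: PSAE2, PSAH2 and PSBQ2. Copies are called first and second here only by the number in their symbol. The second copies PSAD2 and PSBO2 had both MT libraries below the control, and neither was called. The share of a pair's summed CPM taken by its first copy is a level within a library, free of its scaling. PSBQ1 took 66.7 and 65.4% of its pair in control, 60.3 and 61.1% under IAA and 58.7 and 61.2% under MT. Both treatments were below the control without overlap. PSBO1 took 69.7 and 71.4% in control, 73.5 and 73.8% with IAA and 74.5 and 75.7% with MT, and both treatments were above the control. PSAE1 took 74.5 and 73.3% in control, 71.9 and 71.4% with IAA and 71.5 and 70.8% with MT. PSAH1 went from 58.2 and 59.7% in control to 55.1 and 53.0% with MT, with the IAA libraries at 55.7 and 58.1%, the second of them next to the lower control library. LFNR1 took 52.1 and 52.8% in control, 50.3 and 51.6% with IAA and 49.3 and 49.5% with MT. FD1 took 21.6 to 24.7% in all libraries, with overlap between the groups. For 2 libraries against 2 an exact two-sided permutation test cannot go below 0.333, so the shares are given without a test. Both treatments are set against the same 2 control libraries, and how often the shares of other gene pairs separate was not measured. Coding identity between copies was 60.3% in plastocyanin and 73.5 to 86.99% in the other pairs. The longest identical run within coding sequence was 35 bases, in PsaD. A read that lies wholly within such a run could belong to either copy, but read lengths were not compared with these runs.

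**Figure D4:**
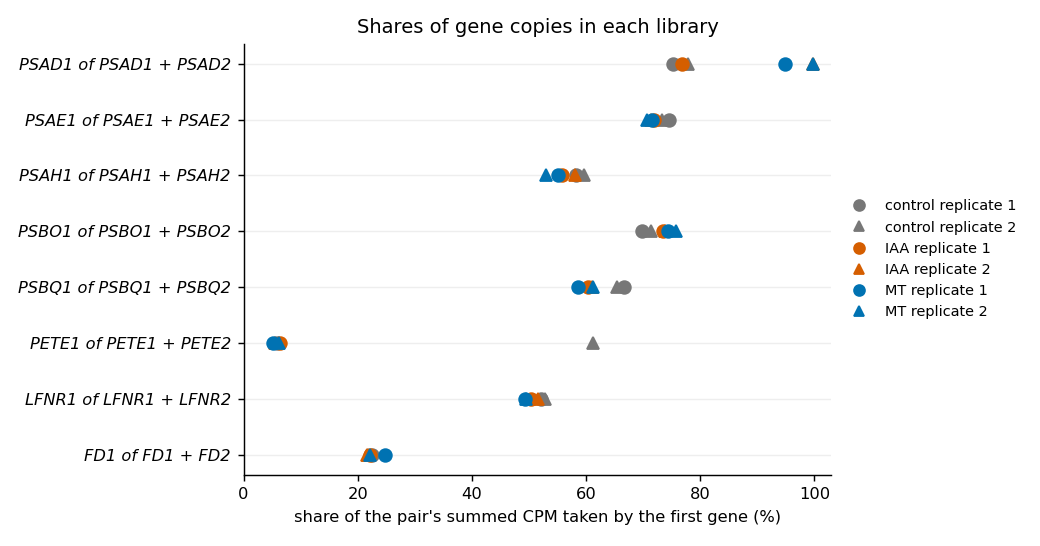
Share of a pair's summed CPM taken by its first copy (horizontal axis, percent) in each library, for 8 pairs of gene copies (vertical axis). PSBQ1, PSAE1 and LFNR1 lie lower and PSBO1 higher in all 4 treated libraries than in the control. PSAH1 lies lower too, but in IAA replicate 2 barely so, with 58.12% against 58.16% in control replicate 1. PSAD1 reaches 99.8% in the 2 libraries with the fewest PSAD2 counts, and PETE1 61.2% in control replicate 2.

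Other genes of photosynthesis were counted from lists. In the antenna, which feeds light energy to both photosystems, 14 of 20 genes rose and 0 fell with MT (median 0.79), 3 rose and 1 fell with IAA (median 0.19), and 2 rose between MT and IAA (median 0.52). LHCB2.3 (AT3G27690), LHCB3 (AT5G54270), LHCB1.2 (AT1G29910) and LHCB1.1 (AT1G29920) had the smallest p with MT, at 2.04 ± 0.11, 1.39 ± 0.09, 1.95 ± 0.14 and 0.91 ± 0.09. The summed level of all 20 antenna genes was 1.64 and 1.55 times the control mean with MT and 1.19 and 1.07 times with IAA, against 1.12 and 1.02 and 0.909 and 0.840 times for the 32 core genes. LHCB4.3 (AT2G40100) fell with IAA (-0.91 ± 0.08), and LHCB2.3 and LHCB4.3 were the 2 that edgeR's test called higher with MT than with IAA. DESeq2 called 17 of the 20 higher there and limma voom 3, and 19 had both MT libraries above both IAA libraries. LHCB1 copies are near-identical, so their single values are uncertain. Of 4 genes of the Rubisco small subunit, RBCS3B (AT5G38410) rose with MT (0.92 ± 0.09) and against IAA (0.77 ± 0.09), and the others did not pass edgeR's test. With IAA 0 were called by edgeR's test or limma voom, while DESeq2 called 2 lower and the unadjusted p was under 0.05 for 2. Their summed level was 0.818 and 0.807 times the control mean with IAA and 1.03 and 0.956 times with MT, where it overlapped the control. Of 24 genes of photosystem assembly and repair 0 rose and 1 fell with MT, LPA2 (AT5G51545), a factor of photosystem II assembly (-0.44 ± 0.08). With IAA 0 were called by edgeR's test or limma voom, while 12 were lower at an unadjusted p under 0.05 (7.32% of all genes), DESeq2 called 9 lower (1.69%), and 18 had both IAA libraries below the control (24.8%).

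Of 14 nuclear genes of the NDH complex, which also carries cyclic flow, and of 13 further carriers and helpers, 0 were called in any comparison by edgeR's test or limma voom. The unadjusted p was under 0.05 for 5, 2 and 9 NDH genes and for 1, 1 and 4 of the helpers with IAA, with MT and between MT and IAA. All of these were lower with IAA and higher in the other comparisons, where 7.32, 12.5 and 9.08% of all genes were. DESeq2 called 1, 2 and 2 of the NDH genes and 0, 1 and 2 of the helpers in the same order and directions, beside 1.69, 7.28 and 3.98% of all genes. Of 13 tested regulators of photosynthesis genes 3 fell with MT: the GATA factors GNC (AT5G56860), at -0.84 ± 0.13, and CGA1 (AT4G26150), at -1.10 ± 0.17, and GLK2 (AT5G44190), at -0.66 ± 0.13. These 3 factors promote chloroplast development, and of all genes tested 3.65% fell with MT. Above 0 with MT were 10 of the 13 regulators, and the median of the list was 0.05. Among these 10 was GLK1 (AT2G20570), at 0.23 ± 0.08 and not called (adjusted p = 0.135). With IAA edgeR's test and limma voom called 0 regulators, 8 were lower at an unadjusted p under 0.05 (7.32% of all genes), 10 had both libraries below the control (24.8%) and DESeq2 called 3 lower (1.69%). Between MT and IAA both tools called 0, DESeq2 called 3 higher (3.98%) and 7 were higher at an unadjusted p under 0.05 (9.08%). GLK2 had 108 and 113 CPM in control, 63.6 and 72.5 CPM with IAA and 79.0 and 61.4 CPM with MT, below the control in both treatments. Of 19 tested chloroplast genes for core subunits 0 were called in any comparison by edgeR's test, DESeq2 or limma voom, with an unadjusted p under 0.05 for 2 with IAA, 1 with MT and 1 between them. The 21 chloroplast genes listed, 2 of them not tested, summed to 49.1 to 112 CPM, with control replicate 1 the lowest and control replicate 2 the highest. At such levels and with this gap in the control, 0 calls do not show that these genes stayed unchanged.

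Markers of organs were measured beside these results. Of 24 root markers none was at 0 in any library. Their summed level was 605 and 447 CPM in control, 588 and 592 CPM with IAA and 433 and 418 CPM with MT, so that the MT libraries were the lowest and the control replicates spanned most of the range. With MT 0 rose and 2 fell, CASP5 (AT5G15290) (-1.27 ± 0.21) and PER64 (AT5G42180) (-0.69 ± 0.13), both of the endodermis. There 11 of 24 had both MT libraries below the control and 2 above (27.7 and 27.8% of all genes), 8 were lower and 1 higher at an unadjusted p under 0.05 (12.7 and 12.5%), and DESeq2 called 6 lower (6.89%). PLT1 and PLT2, factors of the root stem cell niche, had 0.61 ± 0.29 and 0.78 ± 0.28 with MT. Their values with IAA were 0.94 ± 0.29 and 0.78 ± 0.28. Neither gene was called with MT or IAA, and their levels were only 1.31 to 4.76 CPM. CASP5 was as low, at 1.61 to 4.33 CPM, while PER64 had 19.7 to 37.65 CPM. With IAA edgeR's test and limma voom called 0 root markers and DESeq2 1, higher, their median was 0.22, 9 had both IAA libraries above the control and 0 below (23.6 and 24.8% of all genes), and 4 were higher at an unadjusted p under 0.05. Between MT and IAA 19 of 24 had both MT libraries lower (26.1% of all genes), 17 were lower at an unadjusted p under 0.05 (8.28%), edgeR's test and limma voom called 0 and DESeq2 called 8 lower (3.14%). Of 15 shoot markers with no role in photosynthesis none was at 0 in any library, and edgeR's test and limma voom called 0 in any comparison. With IAA their median was -0.20, beside -0.21 for the 35 genes, with 12 of 15 below 0, and 7 had both IAA libraries below the control and 2 above. There 4 were lower and 0 higher at an unadjusted p under 0.05, and DESeq2 called 0. With MT the median was 0.00, 3 were lower and 1 higher at that p and DESeq2 called 1 lower, and between MT and IAA it was 0.10, with 2 higher at that p and 0 called by DESeq2. They summed to 688 and 905 CPM in control, 724 and 669 CPM with IAA and 637 and 702 CPM with MT, with overlap between all groups. The part of organ shares in the levels of the 35 genes was not tested.

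**Figure D5:**
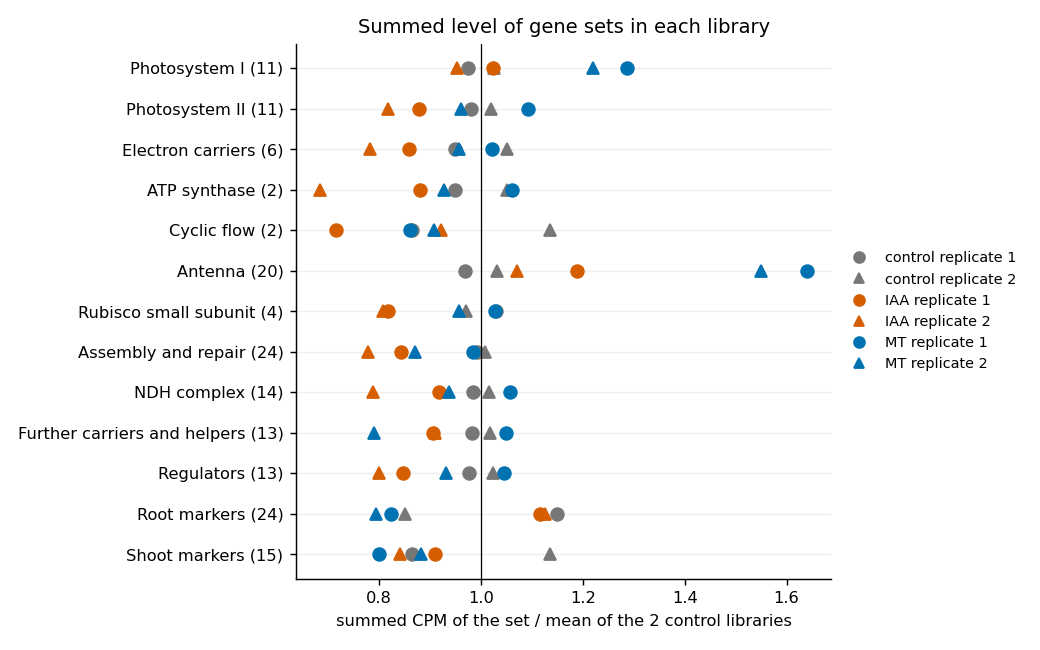
Summed CPM of gene sets in each library over the mean of the 2 control libraries (horizontal axis), with the number of genes summed in brackets (vertical axis). Photosystem I without PSAD2 reaches 1.22 and 1.29 in the MT libraries and the antenna 1.55 and 1.64. Photosystem II, the carriers without PETE2, the ATP synthase without ATPC1, Rubisco small subunit, assembly and repair, NDH, the further carriers and helpers and the regulators lie below the control in both IAA libraries, and root markers are lowest in the MT libraries.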

How the data were processed

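The authors deposited 1 table of raw read counts per gene for 6 libraries. Per the submitters' processing notes, the tools were HTSeq 0.6.1, DESeq 1.18.0, TopHat2 2.0.12 and Bowtie2 2.2.3. The build, annotation and strand setting were not given in the sources used here. No coordinates are therefore printed, and 11 of the 35 genes (PSAD2, PSAE1, PSAE2, PSAG, PSAH1, PSAH2, PSAN, PSBP1, PSBR, LFNR1 and FD1) overlap another gene model in TAIR10.1, so their counts are uncertain. That RefSeq annotation was used only for symbols, neighbours, transcript lengths and coding identity between copies.

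Groups and replicate numbers came from the sample titles. Counts were tested in R 4.3.3 with edgeR 4.0.16: TMM, filterByExpr by group (21355 genes kept of 24267, which hold 351 entries of new genes), and the quasi-likelihood test on the 6 libraries together with only group in the model (3 residual degrees of freedom). Within a comparison the Benjamini-Hochberg adjustment covered every tested gene, and the threshold was 0.05. The SE of a log2 fold change was its size over the square root of the F statistic. Alternatives used other scalings, filters, fits, DESeq2 1.42.0, limma 3.58.1 voom, a replicate block and each library left out. The fit was tested on simulated data with changes larger than those of the called photosystem genes, so changes of their size were not covered. Replicates differed beyond counting noise (chi-square over its degrees of freedom 25.6 to 32.8), so no libraries were taken as 1 library deposited again. Intervals for counting error are not printed, since the spread between libraries was wider. The labels state no pairing of the replicate numbers, and these were not taken as pairs. Deviations from the group means of same-numbered libraries correlated with r of 0.025, 0.0074 and 0.079. Such values over all genes do not exclude a shared step that affected some genes.

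The list of genes, though its rule uses no measured value, the other lists and the alternatives were proposed with earlier results of these data known. The rule for named genes asked for library values of called genes with no overlap, of both copies of each pair and of the highest and lowest fold changes, and for up to 4 called members of each list with the smallest p. Library values of the other genes were added after they were seen. Sample columns not used numbered 0.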

Additional observations from a re-analysis of the deposited data

How the results depend on the processing

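Of 1785 values of the 35 genes over 17 alternative settings, 1737 kept their side of the threshold, 25 gained and 23 lost a call, and no called gene changed sign. Of values not called 55 changed sign. The 4 genes called with MT were called in 14 (PSAE2), 12 (PSAH2), 10 (PSBQ2) and 9 (PSAF) of the 17 settings, with adjusted p from 3.48e-05 to 0.141, 0.000226 to 0.178, 0.00016 to 0.178 and 0.000285 to 0.188. In place of 4 with MT, DESeq2 called 9 of the 35 genes (PSAD1, PSAG, PSAK, PSAL and PSBW as well) and a fit of only the groups compared 2. DESeq2 called 2 with IAA and 16 between MT and IAA, where the edgeR test called 0. Leaving out each library gave 0 to 2 called genes with MT and 0 to 1 with IAA: 0 without control replicate 2 or MT replicate 1, and PETE2 alone without control replicate 1. With a replicate block 1 gene, PSAE2, stayed called with MT and the adjusted p was 0.0806 for PSAF, 0.0631 for PSAH2 and 0.0671 for PSBQ2. The labels state no pairing, and whether same-numbered libraries shared a step is unknown, so which of the 2 fits is right cannot be told. Over all genes the 71 called with IAA became 768 with DESeq2, 130 with robust empirical Bayes, 125 in a fit of only the groups compared and 15 to 113 with a library left out. The 1633 called with MT became 2905 with DESeq2 and 493 to 1300 with a library left out. The 37 called between MT and IAA became 76 with no filter, 1225 with DESeq2, 142 with robust empirical Bayes, 6 in a fit of only the groups compared, 12 with a replicate block and 6 to 340 with a library left out. The cause of these differences was not tested.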

Other observations

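Single libraries also stood apart in genes outside the 35. PETM (AT2G26500), a small subunit of the cytochrome b6f complex, had 329 and 399.9 CPM in control, 301 and 289 CPM with IAA, 359.5 CPM in MT replicate 1 and 40.5 CPM in MT replicate 2. ESB1 (AT2G28670), a root endodermis gene, had 25.02 and 21.3 CPM in control, 0.970 CPM in IAA replicate 1, 27.4 CPM in IAA replicate 2 and 17.9 and 27.4 CPM with MT. Both genes were named after their values were seen.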
